A study of Rattus norvegicus and Mus musculus with 14 samples.

Results

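Rat embryonic cortical neurons that had received NMDA were compared with neurons given the control solution, labelled CSS, in the experiments that also tested an inhibitor of the kinase MEK. The arrays were chosen by their titles: the 2 NMDA arrays and the 2 control arrays of the MEK set, 1 of each from experiment 1 and from experiment 2, or 4 of the 14 arrays of the series. The same 2 experiments hold 2 arrays of neurons given NMDA with the MEK inhibitor PD98059, and these 6 arrays were fitted together. A further 6 rat arrays (the NOS set: control, NMDA, and NMDA with nitroarginine, 2 of each) served for comparison, and the 2 mouse arrays of the series were not used. The labels give no strain, no gestational age, no dose of NMDA or PD98059 and no time of exposure. Nothing in them says that experiments 1 and 2 came from separate cultures, so each p-value reflects how far these particular arrays differ, and that spread could be purely technical.

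NMDA opens a class of glutamate receptor channel that admits calcium into neurons. Calcium then activates several kinase pathways, among them the cascade from Ras through Raf and MEK to ERK, as well as calcineurin and neuronal nitric oxide synthase, and these act on transcription factors such as CREB and the MEF2 family. The same receptors take part in synaptic plasticity and survival when stimulated moderately and in excitotoxic death when stimulated strongly, and in neurons they also regulate protein synthesis through the kinase complex mTORC1 and the elongation factor Eef2.

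Each array gave 1 score for each of 1152 cDNA probes. The scores are Z-scores, so a value of 0 is the mean probe of that array, 1 unit is about 1 standard deviation over its probes, and a difference in score is neither a fold change nor an amount of RNA. The column of the experiment 1 control is deposited 1 row off from the other columns. Over all probes its Pearson correlation with the median of the other 5 MEK set arrays was 0.122 as deposited and 0.866 after it was moved down by 1 row, and no other move of up to 24 rows (48 tried) gave an absolute value above 0.148. The move holds along the whole array, since in 12 windows of 96 probes the correlation with the experiment 2 control lay between 0.783 and 0.933. It leaves 1151 probes with a value on every array, of which 383 carry 1 gene symbol.

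Even when aligned, the experiment 1 control stood apart, and every MEK set value below that averages both experiments or comes from experiment 1 rests on it in part. It correlated at 0.858 to 0.868 with the other 5 MEK set arrays, which correlated at 0.971 to 0.995 among themselves. The gap between the 2 controls had a median of 0.314 Z units per probe, against 0.0669 between the 2 NMDA arrays. NMDA minus control had a standard deviation over probes of 0.515 in experiment 1 and 0.241 in experiment 2. The difference also followed the level of the probe. With probes divided into 5 groups of equal size by their score in the PD98059 arrays, the median difference in the dimmest group was -0.27 in experiment 1 and 0.118 in experiment 2, and in the brightest group it was 0.285 and 0.148. On the median, bright probes thus scored higher under NMDA in both experiments. The part of this pattern in the values of the genes named here was not tested.

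**Figure D1:**
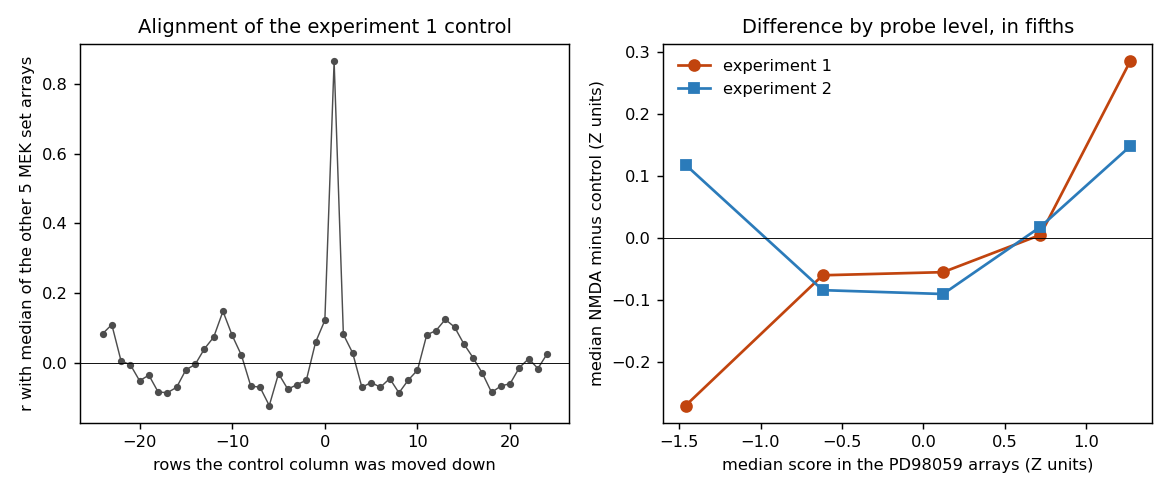
Left, Pearson correlation over probes (y axis) of the experiment 1 control with the median of the other 5 MEK set arrays, against the number of rows by which its column was moved down (x axis); the peak of 0.866 lies at 1 row. Right, median NMDA minus control in Z units (y axis) in 5 groups of probes ordered by their score in the PD98059 arrays (x axis, median score of each group in Z units), for experiment 1 (circles) and experiment 2 (squares); in the brightest group the medians are 0.285 and 0.148.

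No probe differed between NMDA and control past the threshold. With limma and Benjamini-Hochberg adjustment over 1151 probes, the number called at an adjusted p under 0.05 was 0 (percent called 0), and the lowest adjusted p was 0.393, shared by 207 probes. At an unadjusted p under 0.05 there were 140 probes, where 5% of the probes tested would be 57.6 for both directions together. Of the 140, 62 were higher under NMDA (5.39% of all probes) and 78 lower (6.78%). The 2 experiments gave the same sign for 618 probes (53.7%): 337 were higher under NMDA in both (29.3%) and 281 lower in both (24.4%). Across all probes the differences of experiment 1 and experiment 2 correlated at r = 0.169, a description over probes, which are not independent replicates. Both NMDA arrays lay above both controls for 281 probes (24.4%) and below both for 230 (20.0%). The median difference over all probes was 0.00414, as a score centred on each array fixes it near 0.

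**Figure D2:**
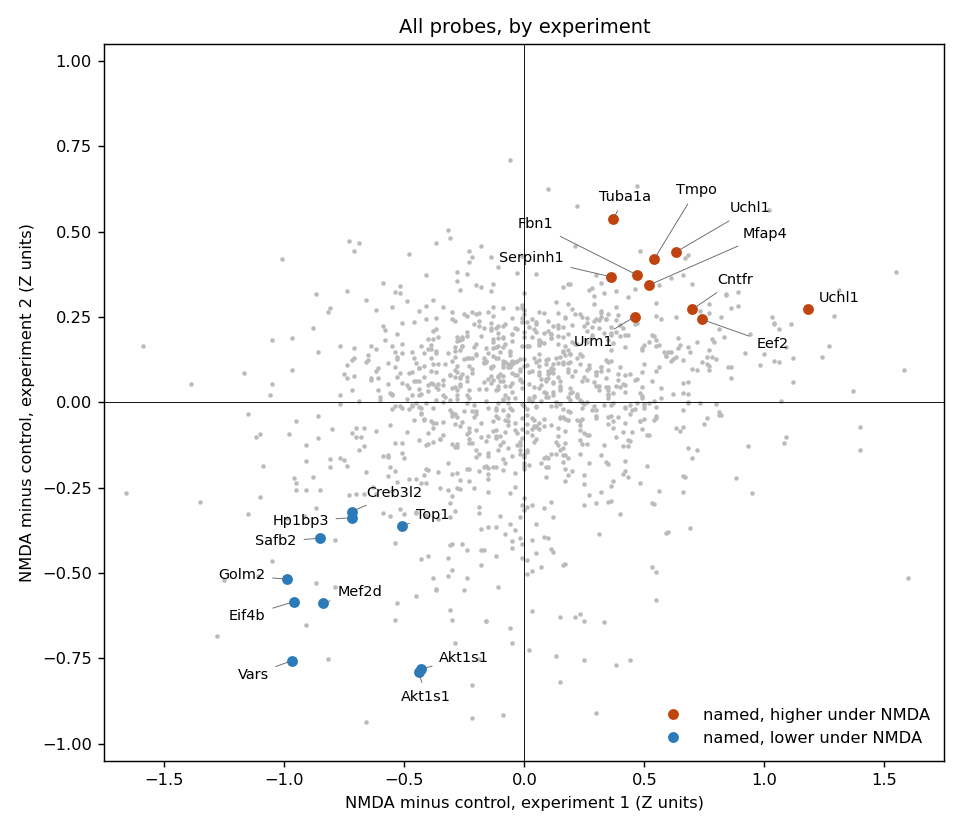
NMDA minus control in experiment 1 (x axis, Z units) against experiment 2 (y axis, Z units) for 1148 probes, 1 point each, with 3 further probes outside the axes; the 20 named probes are coloured by direction. The named points lie in the upper right and lower left because they were chosen for the same sign in both experiments, and the cloud is wider along experiment 1 (SD 0.515) than along experiment 2 (SD 0.241).

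The genes described next are the 10 probes in each direction with the smallest unadjusted p among probes with 1 gene symbol and the same sign in both experiments. Since no probe passed, they are given by their values, each with limma's adjusted p of 0.393. That the groups of all 20 probes do not overlap follows in part from this choice. The differences ranged in size from 0.355 to 0.863 Z units.

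The probes lower under NMDA are described first, ordered by the role of their gene. Vars, the synthetase that charges tRNA with valine, scored 0.12 and -0.0984 in the controls of experiments 1 and 2 and -0.85 and -0.855 in the NMDA arrays. Both NMDA arrays were below both controls, and the difference of -0.863 (limma SE 0.137, n = 2 arrays a group) was the largest in size among the named probes. Eif4b, which stimulates the helicase that unwinds messenger RNA for the ribosome, scored 0.39 and -0.00952 in controls and -0.57 and -0.593 under NMDA. The groups were apart, with a difference of -0.772 (SE 0.144), although the controls themselves lay far apart.

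Akt1s1 encodes PRAS40, a component of mTORC1 that inhibits it until Akt phosphorylates it, and had 2 probes. On probe 278 the controls scored 0.35 and 0.552 and the NMDA arrays -0.09 and -0.238, and on probe 674 the controls scored 0.19 and 0.532 and the NMDA arrays -0.24 and -0.249. The probes gave nearly the same values, with differences of -0.615 (SE 0.14) and -0.606 (SE 0.154), and were lower in experiment 2 by more (-0.789 and -0.781) than in experiment 1 (-0.44 and -0.43). Vars and Akt1s1 keep the symbols of the array annotation, whose gene entries were not in the rat gene table.

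Mef2d, a transcription factor controlled by calcium and by MAP kinases, scored 0.57 and 0.335 in controls and -0.27 and -0.253 under NMDA. Its NMDA arrays lay close together and well below either control (difference -0.714, SE 0.129). Creb3l2, a transcription factor held in the endoplasmic reticulum membrane until it is cleaved, scored 0.95 and 0.68 in controls and 0.23 and 0.36 under NMDA (difference -0.52, SE 0.146). Top1, the DNA topoisomerase that relaxes supercoils during transcription, scored -0.01 and -0.136 in controls and -0.52 and -0.498 under NMDA. This was the smallest of the lower differences (-0.436, SE 0.122), with controls and NMDA arrays each close together.

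The scaffold attachment factor Safb2, which binds RNA and chromatin, scored -0.01 and -0.644 in controls and -0.86 and -1.04 under NMDA. The groups did not overlap, but the distance between its controls was about as large as its difference of -0.624 (SE 0.163). Hp1bp3, a linker-histone-like protein of heterochromatin, scored -0.24 and -0.58 in controls and -0.96 and -0.918 under NMDA, a difference of -0.529 (SE 0.145). Golm2, a membrane protein of the Golgi family, scored -0.15 and -0.584 in controls and -1.14 and -1.1 under NMDA. Its difference of -0.754 (SE 0.165) was -0.99 in experiment 1 and -0.518 in experiment 2. In every lower probe except those of Akt1s1, the experiment 1 control was the highest of the 4 control and NMDA arrays.

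The probes higher under NMDA follow in the same way. In every one of them the experiment 1 control was the lowest of the control and NMDA arrays. Tuba1a, the main alpha tubulin of developing neurons, scored 0.09 and 0.153 in controls and 0.46 and 0.689 under NMDA. The groups were apart, and the difference of 0.453 (SE 0.135) was 0.37 in experiment 1 and 0.537 in experiment 2. Uchl1, a ubiquitin hydrolase abundant in neurons, had 2 probes on the list. Probe 1074 scored 0.23 and 1.23 in controls and 1.41 and 1.51 under NMDA, and probe 557 scored 0.57 and 0.974 in controls and 1.2 and 1.41 under NMDA. In both the experiment 1 control was the lowest array, so that the difference of 0.727 (SE 0.244) on probe 1074 was 1.18 in experiment 1 and 0.274 in experiment 2, while the 0.535 (SE 0.179) on probe 557 was 0.63 and 0.44. Cntfr, the ligand-binding receptor subunit for ciliary neurotrophic factor, scored 0.76 and 1.28 in controls and 1.46 and 1.55 under NMDA (difference 0.486, SE 0.158), again with the experiment 1 control lowest.

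Eef2, the factor that moves the ribosome along the messenger RNA, scored 0.68 and 1.25 in controls and 1.42 and 1.5 under NMDA on probe 556, a difference of 0.491 (SE 0.173). Its other probe, 528, was also higher under NMDA in both experiments, by 0.188 (SE 0.118), with controls of -0.21 and -0.288 and NMDA arrays of -0.01 and -0.112. Urm1, a ubiquitin-like protein that supplies sulfur for tRNA modification, scored 0.98 and 1.27 in controls and 1.44 and 1.53 under NMDA (difference 0.355, SE 0.127). It had the smallest difference of the named probes. Tmpo, a protein of the nuclear lamina that is also used as a marker of dividing cells, scored 0.86 and 0.896 in controls and 1.4 and 1.32 under NMDA. Its controls lay close to each other, and the difference of 0.48 (SE 0.123) was 0.54 in experiment 1 and 0.419 in experiment 2.

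Fbn1, the microfibril protein fibrillin-1 of the extracellular matrix, scored 0.51 and 0.571 in controls and 0.98 and 0.944 under NMDA (difference 0.422, SE 0.121). Serpinh1, the collagen chaperone of the endoplasmic reticulum, scored -1.59 and -1.37 in controls and -1.23 and -0.999 under NMDA. Its difference of 0.364 (SE 0.127) was the same in both experiments, 0.36 and 0.368, and here both arrays of experiment 2 were higher than their partners in experiment 1. Mfap4, a microfibril-associated protein, scored 0.16 and 0.389 in controls and 0.68 and 0.733 under NMDA on probe 1025 (difference 0.432, SE 0.132). Its other probe, 670, scored 1.03 and 1.18 in controls and 1.12 and 1.21 under NMDA, higher by only 0.09 and 0.026 in the 2 experiments, so the probes of Mfap4 gave unequal values.

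Of the 10 higher probes, 6 lay in the brightest of the 5 level groups, where the median of all probes was higher under NMDA too, and none of the lower probes did: 5 of them lay in the level group next to the dimmest and 4 in the middle one. Under quantile normalization, which gives all arrays one distribution of scores, the higher probes kept differences of 0.201 to 0.644 and the lower ones of -0.77 to -0.31. With each array centred on its median and scaled by its median absolute deviation the ranges were 0.258 to 0.618 and -0.619 to -0.259, while the median of all probes moved to 0.0884; there Golm2 (-0.491), Safb2 (-0.393), Hp1bp3 (-0.301) and Top1 (-0.259) were smaller in size by over 1.5 times and Serpinh1 (0.56) larger. Removing a running trend along the array's probe order gave 0.193 to 0.679 and -0.923 to -0.43, with values reduced by over 1.5 times for Fbn1 (0.193), Mfap4 (0.235), Uchl1 probe 557 (0.344), Eef2 (0.288) and Urm1 (0.208). Quantile normalization and trend removal together left the higher probes at 0.0775 (Urm1) to 0.598, with Fbn1 at 0.154 and Eef2 at 0.164, and the lower ones at -0.835 to -0.329. In bulk RNA a lower score can come from less RNA per cell or from fewer cells of a type, and these cannot be told apart here.

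**Figure D3:**
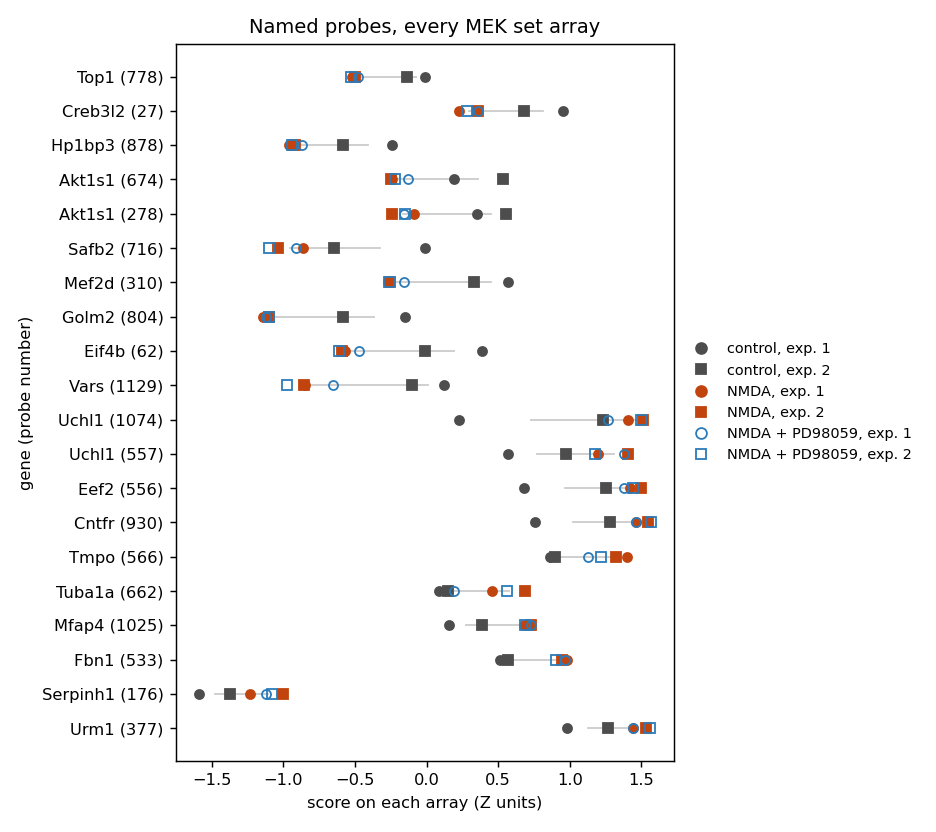
Score in Z units (x axis) of each named probe (y axis, gene and probe number) on every MEK set array: control (filled grey), NMDA (filled red) and NMDA with PD98059 (open blue), circles for experiment 1 and squares for experiment 2, with a grey line joining the mean of the controls to the mean of the NMDA arrays. The NMDA symbols lie close together, as for Mef2d at -0.27 and -0.253, while the control symbols are often far apart, as for Uchl1 probe 1074 at 0.23 and 1.23.

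CREB, activated downstream of NMDA receptors, binds the palindrome TGACGTCA, the cAMP response element, and also the shorter TGACG, which reads as CGTCA where it lies on the other strand. Promoter windows of 300 bases, 250 before and 50 after the annotated start, were available from RefSeq (rat build GRCr8) for 13 of the 18 named genes. TGACG was found on either strand in 4 of these 13, and TGACGTCA in 1. Of all 33469 rat promoter windows of the same length, 21.2% hold TGACG and 1.83% hold TGACGTCA, and every TGACGTCA also counts as a TGACG. The 4 windows are shown 5′ to 3′ along the gene because they hold these letters in genes that were named above, 1 higher and 3 lower under NMDA; capitals mark TGACG on either strand. Eef2 is at chr7:9189189-9189488 (minus strand), Safb2 at chr9:1504093-1504392 (minus strand), Top1 at chr3:169712945-169713244 (plus strand) and Creb3l2 at chr4:66990783-66991082 (minus strand).
Eef2: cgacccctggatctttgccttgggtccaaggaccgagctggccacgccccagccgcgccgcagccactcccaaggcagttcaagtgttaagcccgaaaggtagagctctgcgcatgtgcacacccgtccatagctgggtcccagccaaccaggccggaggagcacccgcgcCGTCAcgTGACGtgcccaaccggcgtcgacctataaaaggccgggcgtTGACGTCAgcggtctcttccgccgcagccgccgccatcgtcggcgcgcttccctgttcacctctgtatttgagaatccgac
Safb2: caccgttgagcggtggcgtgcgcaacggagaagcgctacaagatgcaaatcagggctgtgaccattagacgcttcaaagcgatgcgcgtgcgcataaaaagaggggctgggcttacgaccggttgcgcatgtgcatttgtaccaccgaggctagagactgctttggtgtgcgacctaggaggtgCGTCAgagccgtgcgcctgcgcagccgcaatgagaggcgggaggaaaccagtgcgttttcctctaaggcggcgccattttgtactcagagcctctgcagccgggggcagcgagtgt
Top1: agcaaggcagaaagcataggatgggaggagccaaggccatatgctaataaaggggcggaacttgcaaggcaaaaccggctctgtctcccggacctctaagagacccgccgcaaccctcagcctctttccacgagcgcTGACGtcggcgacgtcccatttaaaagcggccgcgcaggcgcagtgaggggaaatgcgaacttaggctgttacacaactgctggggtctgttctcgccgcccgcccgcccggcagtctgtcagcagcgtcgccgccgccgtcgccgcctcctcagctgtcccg
Creb3l2: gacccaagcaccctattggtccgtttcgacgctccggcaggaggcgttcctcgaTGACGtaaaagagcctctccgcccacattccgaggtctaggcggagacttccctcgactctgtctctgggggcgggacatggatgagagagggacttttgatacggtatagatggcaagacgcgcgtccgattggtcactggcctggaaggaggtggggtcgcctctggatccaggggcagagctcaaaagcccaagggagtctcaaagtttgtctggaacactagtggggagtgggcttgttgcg
The Eef2 window holds 4 matches, whose first bases lie 79, 72, 31 and 28 bases before the start, and the last pair overlap as the full TGACGTCA. Safb2 has its match 66 bases, Top1 113 bases and Creb3l2 196 bases before the start. A match in these letters is a description of the window and not a binding site, and the arrays hold no measure of CREB binding.

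The array held no probe named for any gene on the lists of activity-regulated genes (such as Fos, Arc, Egr1 and Bdnf) or of cell death and survival. The usual transcriptional response to NMDA receptor activity could therefore not be read here. Of 16 gene lists, 13 had at least 3 genes measured, and together the lists took in 101 probes of 72 genes. In no list did a probe pass the threshold (0 of 101; 0 of all probes). They are described by how many probes were higher or lower in both experiments, which for all probes was 29.3% and 24.4%, and by the median difference, which for all probes was 0.00414. Some lists hold named probes, which were chosen for the same sign in both experiments and so add to these counts.

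mTORC1 regulators had the lowest median, -0.497 over 4 probes of 3 genes (-0.435 in experiment 1 and -0.553 in experiment 2), with 3 probes lower and 1 higher in both experiments. The lower ones were both Akt1s1 probes and Rraga, a Rag GTPase that brings mTORC1 to the lysosome when amino acids are present. The Akt1s1 probes are named probes, chosen by small p and the same sign in both experiments, so the list's count and median follow in part from that choice. Rraga scored -0.21 and -0.281 in controls and -0.66 and -0.606 under NMDA, without overlap (difference -0.388, SE 0.12). The higher one was Tsc2, the GTPase-activating protein that switches off Rheb and with it mTORC1, at -1.6 and -1.04 in controls and -1 and -0.891 under NMDA. Its difference of 0.373 (SE 0.156) came mainly from experiment 1 (0.6, against 0.147 in experiment 2).

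Translation factors had 13 probes of 7 genes, with no shared direction: 3 were higher and 4 lower in both experiments, and the median was -0.0162 (-0.15 and 0.0919 by experiment). With each array scaled by its median and median absolute deviation, this median had the other sign. The range ran from Vars at -0.863 to Eef2 at 0.491. The 5 probes of Eef1a1, the factor that delivers aminoacyl-tRNA, lay between -0.302 and 0.0212. Eif3a, the largest subunit of initiation factor 3, was higher in both experiments (0.35 and 0.183), and Eif4g1, the initiation scaffold, had differences of 0 and -0.0113. Ribosomal proteins had a median of 0.0474 over 8 probes of 7 genes, with 3 higher and 2 lower in both experiments; the 2 probes of Rpsa had opposite signs, 0.154 and -0.285.

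Among the 7 probes of 6 MAP kinase pathway genes, 2 were lower and 1 higher in both experiments, and the median was -0.18 (-0.38 and 0.133 by experiment). The sign of this median turned when arrays were scaled by the median absolute deviation. It also turned with dim probes left out, a setting that takes members such as Mef2d out of the list. Besides Mef2d, Mapk8, the stress kinase JNK1, was lower in both experiments by small amounts (-0.2 and -0.159). Map2k2, which encodes MEK2, a target of PD98059, scored 1.1 and 0.321 in controls and 0.57 and 0.454 under NMDA, so its arrays overlapped and the experiments had opposite signs. Etv5, a transcription factor induced by ERK signalling, likewise had differences of -0.38 and 0.301. The adaptor Grb2, which links receptors to Ras, had a probe that was higher in both experiments (0.26 and 0.234) and another at -0.71 and 0.129.

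The list of receptors and postsynaptic scaffolds had 3 genes measured, all 3 lower under NMDA in both experiments, with a median of -0.176 (-0.29 and -0.0676). It left out other such genes on the array. The GABA receptor subunit Gabra2 differed by -0.61 in experiment 1 and 0.0363 in experiment 2. The postsynaptic adhesion gene Nlgn2 was higher in both (0.35 and 0.0935). Gabbr1, a subunit of the metabotropic GABA receptor, scored -0.18 and -0.064 in controls and -0.49 and -0.401 under NMDA, with close values in both experiments (difference -0.324, SE 0.123). Shank1, a scaffold of the postsynaptic density, was lower by less (-0.176, SE 0.127), and Dlg4, which encodes PSD-95 and anchors NMDA receptors, differed by -0.0688, less than its SE of 0.131. No probe was named for an NMDA receptor subunit. Vesicle fusion and endocytosis genes had a median of -0.121 over 7 probes, which was near 0 (0.00149) after scaling by the median absolute deviation. Stx7, a syntaxin of late endosomes, was lower in both experiments, at 0.02 and -0.0494 in controls and -0.28 and -0.463 under NMDA (difference -0.357, SE 0.13).

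Calcium genes had no shared direction. Of 4 probes, 1 was higher in both experiments: Ncald, the calcium sensor neurocalcin delta, at 0.63 and 1.23 in controls and 1.31 and 1.26 under NMDA, with nearly all of its difference in experiment 1 (0.68, against 0.0246). Prkca, a calcium-dependent protein kinase C, had differences of -0.64 and 0.0647, and hippocalcin (Hpca) of 0.04 and -0.0517. The list's median of -0.129 turned positive under median absolute deviation scaling and after removal of the trend along the array's probe order. With dim probes left out the value was 0.352, that of Ncald alone, because the other members were taken out.

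Cytoskeletal genes had 14 probes of 10 genes, of which 6 were higher and 1 lower in both experiments, with a median of 0.107 (0.2 and 0.118). Nefl, the light neurofilament subunit, scored -1.33 and -1.56 in controls and -0.86 and -0.929 under NMDA, higher by 0.47 and 0.635 (difference 0.553, SE 0.206). As in Tuba1a and in the gamma-actin gene Actg1, its difference was larger in experiment 2 than in experiment 1. Tubb5, a beta tubulin, was higher by 0.409 (SE 0.17), mostly in experiment 1. The 5 probes of beta-actin (Actb) did not give 1 value: they ranged from -0.112 to 0.718, and the highest scored -0.31 and 0.682 in controls and 0.96 and 0.847 under NMDA.

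Chaperones had the highest median of the lists, 0.28 over 8 probes of 4 genes, but it was 0.575 in experiment 1 and 0.0918 in experiment 2. Of these probes 4 were higher and none lower in both experiments. Cct5, a subunit of the chaperonin that folds actin and tubulin, had opposite signs, 1.08 in experiment 1 and -0.119 in experiment 2. Hsp90ab1, the constitutive cytosolic HSP90, was also uneven, at -1.17 and -0.337 in controls and -0.05 and -0.277 under NMDA (difference 0.59, SE 0.261). Dnaja1, an HSP40 partner of HSP70, was higher by 0.49 and 0.16. The 5 probes of Hspa8, the constitutive HSP70, ranged from -0.298 to 0.446 and so had no common sign.

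In energy metabolism, glycolysis genes had a median of -0.219 over 6 probes (0 in experiment 1 and -0.242 in experiment 2), with 3 lower and 0 higher in both experiments. Adpgk, an ADP-dependent glucokinase, scored -0.64 and -0.304 in controls and -0.93 and -1.01 under NMDA, without overlap (difference -0.498, SE 0.148). Ldha, lactate dehydrogenase A, had probes at -0.378 and 0.22. Oxidative phosphorylation genes had a median of 0.122 over 11 probes that was 0.19 in experiment 1 and -0.0703 in experiment 2. Of those, 7 probes were of the mitochondrial gene COX3, a subunit of cytochrome oxidase, and they ranged from -0.17 to 0.495.

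Proteasome and ubiquitin genes had 4 probes higher and 1 lower in both experiments of 7, with a median of 0.108. Besides Uchl1 these were the proteasome subunits Psmc3 (0.22 and 0.172) and Psmd14 (0.09 and 0.125). Cand1, which exchanges substrate receptors of cullin ubiquitin ligases, had 1 probe lower in both experiments, at 0.43 and 0.648 in controls and 0.06 and 0.1 under NMDA (difference -0.459, SE 0.14). Its 2 others had opposite signs in the 2 experiments, 0.43 and -0.218 on probe 259 and -0.06 and 0.104 on probe 271. Splicing factors ranged from -0.238 to 0.0707 with a median of 0.0295. The sign of that median turned under quantile normalization, scaling by the median absolute deviation and trend removal. It also turned without dim probes, a setting that takes members out of the list. The growth cone list had only 2 probes. Dpysl5, a collapsin response mediator of axon guidance, scored -0.4 and 0.403 in controls and -0.59 and -0.35 under NMDA (difference -0.472, SE 0.238), and Stmn2, a microtubule-destabilising protein of axons, differed by 0.0834 (SE 0.177).

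**Figure D4:**
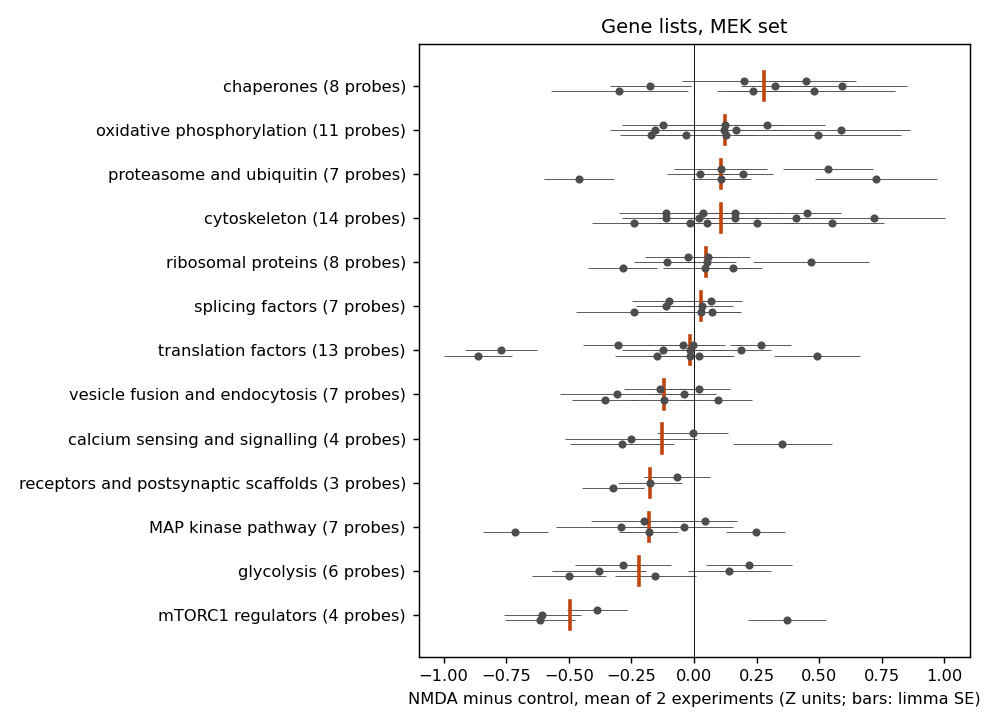
NMDA minus control in Z units, mean of the 2 experiments (x axis), for each probe of the 13 lists with at least 3 genes (y axis), with limma standard errors as bars and the list median as a red mark. Medians run from -0.497 for mTORC1 regulators to 0.28 for chaperones, and the lists overlap widely in their probes' values.

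Markers were used to look at the labelled cell type. A Z-score has no value that stands for absence, so the scores cannot show whether a marker was expressed, and they can only be followed between arrays. Neuronal markers had 8 probes of 7 genes, with a mean score of -0.109 and 0.34 in controls and 0.314 and 0.365 under NMDA. Their median difference was 0.395 in experiment 1 and -0.0136 in experiment 2. In both experiments 4 were higher and 1 lower, and the higher ones include both named Uchl1 probes, chosen for the same sign. The list of endothelial, mural and fibroblast markers, which holds Fbn1, had 7 probes of 5 genes with means of -0.253 and -0.12 in controls and -0.0557 and -0.0493 under NMDA. There 4 probes were higher in both experiments and none lower. They include Fbn1, a named probe chosen for the same sign in both experiments. Another was Acta2, the actin of smooth muscle (-1.52 and -1.39 in controls, -1.22 and -1.01 under NMDA, difference 0.337, SE 0.125). The 2 probes of fibronectin (Fn1), by contrast, were at -0.189 and -0.335. These marker values, of which Fbn1 is 1, stand beside those of Serpinh1 and Mfap4, and their part in them was not tested.

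The list of dividing cell markers had only Tmpo and Hes6 measured (means 1.02 and 1.09 in controls, 1.5 and 1.31 under NMDA). Tmpo is a named probe, chosen for the same sign in both experiments. Hes6 was higher by 0.42 in experiment 1 and by 0.031 in experiment 2 (difference 0.225, SE 0.163). Astrocyte markers had 3 probes of 2 genes with means of -0.0267 and -0.204 in controls and -0.193 and -0.163 under NMDA, and the 2 probes of Gfap, the astrocyte filament protein, were at -0.25 and 0.0836. Microglial markers (Ctsb and Csf1r) had means of 0.735 and 0.818 in controls and 0.8 and 0.77 under NMDA, with groups that overlapped. No probe was named for a gene on the list of oligodendrocyte markers.

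Without the experiment 1 control the picture was narrower. The comparison then rests on the experiment 2 control, with the lone control assumed to vary like the other groups, and limma called 38 probes at an adjusted p under 0.05, of which 37 were lower under NMDA. Of the 38, 13 had 1 gene symbol, and the single higher one was Tuba1a (0.572). Among the lower ones were Vars (-0.836), Akt1s1 (-0.802 and -0.75, the first with the lowest adjusted p, 0.0339), Mef2d (-0.617), Eif4b (-0.613) and Golm2 (-0.524), all described above, together with Dpysl5 (-0.849), Ldha (-0.659), Adpgk (-0.656) and Cand1 (-0.592). The other 2 had the opposite sign in experiment 1: Anxa1, a calcium-binding phospholipid protein, at -0.756 in experiment 2 and 0.25 in experiment 1, and Mrps14, a mitochondrial ribosomal protein, at -0.619 and 0.23. In experiment 1 Ldha differed by only -0.05 and Dpysl5 by -0.19. The Ldha and Cand1 values are of 1 probe each. Their other probes, with both controls, were at 0.22 (Ldha) and at 0.106 and 0.022 (Cand1). Of the 37 lower probes 26 were lower in experiment 1 too, where 51.3% of all probes were; these values share the NMDA array of experiment 1. Without the experiment 2 control, so that all rests on the experiment 1 control, limma called 565 probes, 277 of them higher, and with both controls it called none.

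The NOS set holds separate control and NMDA arrays of the same kind of neuron, and so a second look at the same treatment. Its NMDA minus control differences had a standard deviation over probes of 0.134 in experiment 1 and 0.444 in experiment 2, and no probe passed the threshold there either (57 at an unadjusted p under 0.05, limma). Over all probes the differences of MEK set experiment 1 correlated with those of NOS experiments 1 and 2 at r = 0.116 and 0.00103, and those of MEK set experiment 2 at 0.211 and -0.0533. The 2 NOS experiments correlated with each other at 0.0242. The difference between the sets was tested by an interaction term over the 12 rat arrays, with which limma called 0 probes (percent called 0; lowest adjusted p 0.555; 99 at an unadjusted p under 0.05).

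The 10 lower probes were lower in NOS experiment 1 in 7 cases and in NOS experiment 2 in 6, with 4 lower in both, while of all probes 54.0% were lower in NOS experiment 1, 43.4% in experiment 2 and 23.7% in both. Vars had NOS differences of -0.371 and -0.26 beside the -0.97 and -0.757 of the MEK set. Golm2 had NOS differences of -0.17 and -1.06, Safb2 of -0.158 and -0.506, and Eif4b of -0.168 and -0.0558. These 4 genes were lower under NMDA in all 4 experiments. Akt1s1 was not, with NOS differences of 0.379 and -0.522 on probe 278 and 0.0486 and -0.296 on probe 674, nor was Mef2d (-0.261 and 0.029).

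Of the 10 higher probes, 6 were higher in NOS experiment 1, 6 in NOS experiment 2 and 4 in both, where 26.4% of all probes were. Of all probes, 54.0% were lower in NOS experiment 1 and 43.4% in NOS experiment 2. Tuba1a had NOS differences of 0.206 and 0.448, close to those of the MEK set (0.37 and 0.537), and Tmpo of 0.0826 and 0.577. Uchl1 probe 1074 (0.337 and 0.314) and Eef2 probe 556 (0.0217 and 0.245) completed the named probes higher in all 4 experiments. The other probe of each gene had mixed signs in the NOS set: -0.00498 and 0.666 for Uchl1 probe 557, and -0.02 and 0.00383 for Eef2 probe 528. Cntfr went the other way in the NOS set, at -0.00606 and -0.781, as did Fbn1 at -0.0742 and -0.125, and Serpinh1 and Urm1 had mixed signs. Creb3l2, lower in the MEK set, was higher in the NOS set by 0.0584 and 0.26. For the 20 named probes the interaction had limma adjusted p-values of 0.555 to 0.885, so none of these contrasts between the sets passed the threshold. Among all probes 170 (14.8%) had 1 sign in all 4 experiments, out of 618 with the same sign in both MEK set experiments. The named probes were chosen from those 618, so the share of all probes is not a like measure for them.

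**Figure D5:**
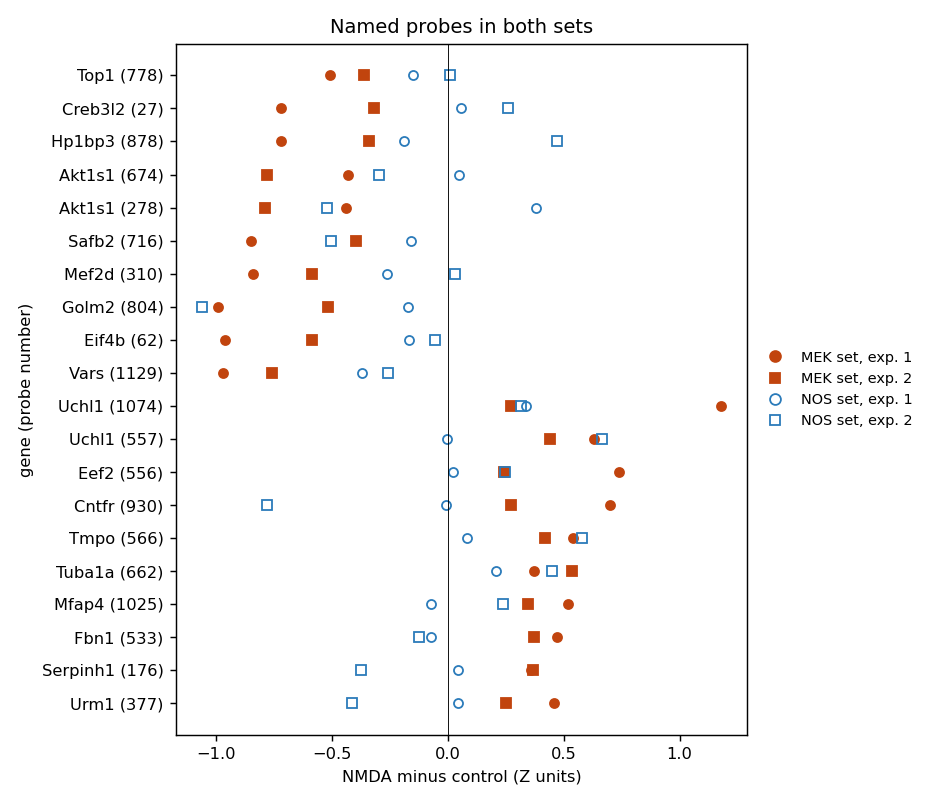
NMDA minus control in Z units (x axis) for the named probes (y axis, gene and probe number) in the MEK set (filled red) and in the NOS set (open blue), circles for experiment 1 and squares for experiment 2 of each set. Vars, Eif4b, Golm2 and Safb2 lie left of 0 and Tuba1a, Tmpo, Eef2 and Uchl1 probe 1074 right of 0 in all 4 experiments, while the NOS values of Fbn1, Cntfr and Creb3l2 lie on the other side of 0 from those of the MEK set.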

How the data were processed

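The cDNA arrays carry 1152 probes. The deposited values are scores, 1 per probe and array, each array having a mean near 0 and an SD near 1; the authors' steps before the scores, and whether a higher score means a brighter spot, are not given in the sources used here, and higher was taken as brighter. Depth and error per spot are unknown, and the number of arrays limits the precision.

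The experiment 1 control of the MEK set was moved down by 1 row and the first probe dropped. Of 1151 probes, 383 had 1 symbol in the platform annotation (341 genes), 6 several and 762 none; 361 matched the RefSeq rat gene table and 22 were left with the symbol of the annotation, which is old. The 27 genes with over 1 probe (up to 7) were treated by probe.

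limma 3.58.1 (R 4.3.3, statmod 1.5.0) was fitted to the 6 MEK set arrays, with 3 group means and the experiment as a block (2 residual and 3.24 prior degrees of freedom), two-sided, with Benjamini-Hochberg adjustment and a threshold of 0.05. The design had been written for this unit. The labels number the experiments, and this number pairs the arrays; arrays of the same number had deviations from their group means that correlated at 0.0726 (control and NMDA), 0.0573 (control and PD98059) and -0.145 (NMDA and PD98059). The comparison with the NOS set was an interaction over the 12 rat arrays, with blocks per experiment (4 residual degrees of freedom).

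Named genes were, in each direction, the 10 largest differences past the threshold among probes with 1 symbol, filled up with the smallest p among probes of 1 sign in both experiments; members of gene lists and other probes of named genes could be named too. Genes, lists and markers were chosen with earlier results of these data known. Anxa1 and Mrps14 were named after their values in the fit without 1 control were seen. Gabra2 and Nlgn2, which are on no gene list, were also named with their values known.

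Data of 1151 probes were simulated with each probe's residual spread over these arrays, the same for all 6 arrays. This comparison then recovered 31 of 100 changes of 0.5 Z units and 74 of 100 of 1 Z unit, with 4 false calls. With the spread of the arrays other than the experiment 1 control it recovered 74 and 91, with 6 false calls. In the real data the experiment 1 control stood apart, which the simulation did not copy, so these figures do not carry over to the real comparison. Promoters came from RefSeq. Figures were drawn with matplotlib 3.10.9, and tables were made in Python 3.11.15 with pandas 2.3.3, numpy 2.4.6 and scipy 1.17.1.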

Additional observations from a re-analysis of the deposited data

Results flagged for a closer look

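The 112 probes looked at here are the named probes and the members of the gene lists. For 13 of them, NMDA minus control had one sign in both MEK set experiments and the other sign in both NOS set experiments. Of all 1151 probes, 138 (12%) did so. The values are the MEK set difference minus the NOS set difference in Z units, with limma's standard error and adjusted p over all probes, and the difference passed the threshold for none of the 13. Among the named genes these were Cntfr at 0.88 (SE 0.28), Fbn1 at 0.521 (SE 0.196) and Creb3l2 at -0.679 (SE 0.221), each with an adjusted p of 0.555. The mTORC1 regulator Tsc2 was at 0.567, the calcium sensor Ncald at 0.734 and the proteasome subunit Psmd14 at 0.649. In translation, 2 probes of Eef1a1 were at -0.572 and -0.417, and the ribosomal proteins Rpsa, Rpl13 and Rps19 were at -0.53, -0.328 and 0.0969. A probe of COX3 was at -0.538 and a probe of Actb at 0.297. Adjusted p-values of these others were 0.555 except for Eef1a1 at -0.417 (0.577), Rpl13 (0.583), Actb (0.637) and Rps19 (0.872).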

How the results depend on the processing

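Calls in NMDA minus control of the MEK set numbered 0 with and without the replicate block (157 probes at an unadjusted p under 0.05 without it) and under every other alternative tried except these: leaving out 1 control or NMDA array gave 0 to 565 calls (38 without control replicate 1, 565 without control replicate 2, 0 without NMDA replicate 1 and 2 without NMDA replicate 2), and the 4 control and NMDA arrays alone with quantile normalization gave 1. The interaction gave 0 calls, also without the block, and 0 to 33 with 1 array left out (33 without MEK set control replicate 2). The block changed no other call. With the control column as deposited, Serpinh1 (-0.896) and Mef2d (0.276) had the other sign. Without control replicate 1, Uchl1 was at 0.308 and 0.335, Cntfr at 0.276, Eef2 at 0.238 and Safb2 at -0.4. With that misaligned column the list medians were -0.972 (mTORC1), 0.2 (cytoskeleton), -0.157 (chaperones), -0.265 (oxidative phosphorylation), -0.00175 (calcium), -0.379 (receptors and scaffolds), -0.326 (vesicles), 0.301 (proteasome) and -0.177 (splicing). Quantile normalization gave -0.398 (mTORC1) and -0.102 (vesicles). Scaling by the median absolute deviation gave -0.319 (mTORC1), 0.139 (ribosomal), 0.0271 (calcium), 0.00149 (vesicles) and 0.264 (proteasome). Removing the trend along the probe order gave -0.355 (mTORC1), 0.00397 (calcium) and -0.135 (vesicles). Leaving out dim probes gave 0.0986 (ribosomal), 0.352 (calcium), -0.0407 (vesicles), 0.366 (proteasome) and -0.105 (splicing). Dim probes were those with a mean score over the MEK set arrays at or below that of the median probe. Each remaining probe keeps its difference in that setting, so these medians moved because members were taken out. Of the lower named probes only Creb3l2 (-0.52) remained, and the mTORC1 list had no value. The cause of the moves in the other settings was not tested. The 4-array quantile fit, quantile normalization with trend removal, and crossed PD98059 arrays were chosen after seeing the data. The lone control or NMDA array of a left-out fit is assumed to vary like the other groups.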
